A study of Mus musculus with 9 samples.

Results

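Transcripts of the sialic acid pathway and of its receptors, the Siglecs, were examined in CD11b+ bone marrow cells through 10 genes of the 23337 in the counts, namely Gne, Nans, Cmas, Slc35a1, Cmah, St6gal1, Neu1, Siglece, Cd33 and Siglec1. Cmah was chosen by its higher level in the EnzR EV mice than in the PBS mice of these same data, and the other genes were chosen from the same pathway with earlier results of these data known. The comparison of EnzR EVs with PBS is therefore given as a description, with no test. All 10 genes passed the filter on low counts, as did 12553 of the 23337 genes (53.8%).

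The cells came from male C57BL/6 mice aged 3 to 6 weeks, and RNA of each mouse was sequenced as a library of its own, with 3 mice in each of 3 groups. EnzR EVs are extracellular vesicles released by CWR-R1 human prostate cancer cells that had become resistant to the antiandrogen enzalutamide. HDL NPs are synthetic particles that imitate high-density lipoprotein, with apolipoprotein and phospholipids on a gold core. The study asked what circulating EnzR EVs do to these cells and whether HDL NPs alter it. PBS mice received 3 tail vein injections of PBS at intervals of 48 h, EnzR EV mice received 3 injections of 10 µg EnzR EVs in 100 µl at the same intervals, and EnzR EV + HDL NP mice received these EnzR EVs together with 3 injections of HDL NPs on alternating days, the first 24 h before the first EnzR EVs. Marrow was taken 24 h after the last injection in every group. No group of these data received HDL NPs without EnzR EVs, or vesicles of other cells. A change by HDL NPs in the response to EnzR EVs therefore cannot be told apart from an effect of HDL NPs alone or of the added injections. Likewise, an effect of EnzR EVs cannot be told apart from one of vesicles in general. The concentration of the HDL NPs is given as 1 µM in one source and as 100 µM in another.

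Sialic acids are acidic sugars that cap the glycans of the cell surface. Gne and Nans act in their synthesis, Cmas activates them to CMP-sialic acid in the nucleus, Slc35a1 carries this donor into the Golgi apparatus, and sialyltransferases such as St6gal1 place it on glycans, from which sialidases such as Neu1 release it. Cmah adds a hydroxyl group to CMP-N-acetylneuraminic acid and so makes N-glycolylneuraminic acid, a form common in mice and lost in humans, and Siglecs are receptors of leukocytes that bind sialylated glycans.

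The libraries differed in depth and in content. Total counts were 6006087, 16381679 and 15972757 in PBS replicates 1 to 3, 2575776, 18110561 and 8554487 in EnzR EV replicates 1 to 3, and 15602936, 16611934 and 13231038 in EnzR EV + HDL NP replicates 1 to 3. Rn45s, the ribosomal RNA precursor that the library preparation is meant to remove, held 42.7% of the counts of EnzR EV replicate 1, 20.3% of PBS replicate 1 and 14.2% of EnzR EV replicate 3, against 0.657% to 2.87% in the other 6 libraries. These 3 libraries stood apart, 2 of them are EnzR EV libraries and none is an EnzR EV + HDL NP library, so Rn45s share and group are partly mixed. Log2 fold changes without them are given beside those of the 10 genes, and were not computed for the lists. A count of 3, used as a floor, equalled 1.65 TMM CPM in EnzR EV replicate 1 and 0.160 TMM CPM in EnzR EV replicate 2, where CPM is counts per 1e6 of the library total and TMM, the trimmed mean of M-values, scales that total, and this floor covers counting error only.

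**Figure D1:**
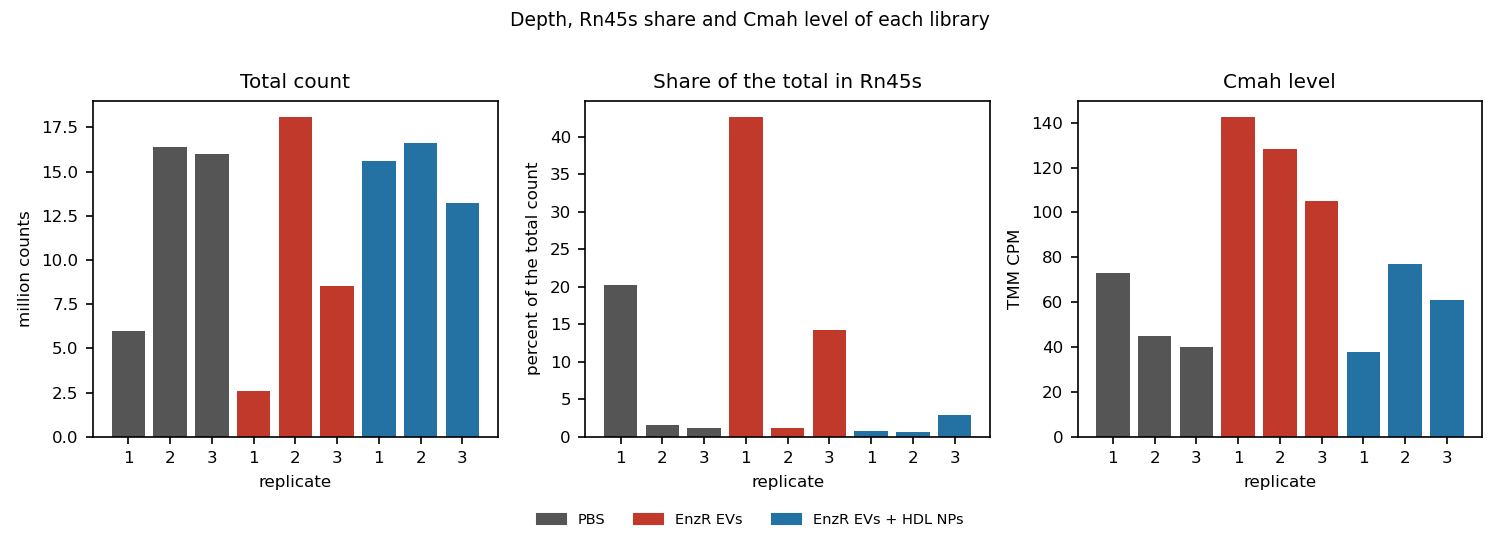
Total count (left), percent of the total held by Rn45s (middle) and Cmah level in TMM CPM (right) in each of the 9 libraries, 1 bar per mouse, coloured by group. EnzR EV replicate 1 had the lowest total and the highest Rn45s share. In EnzR EV replicates 1 to 3, Rn45s held 42.7%, 1.15% and 14.2%, and Cmah stood at 143, 128 and 105 TMM CPM. The part of depth or Rn45s share in the Cmah level was not tested.

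The sorted antigen was present in every library. Itgam, which encodes CD11b, stood at 1389, 1864 and 1733 TMM CPM in PBS mice, 1458, 1876 and 1707 in EnzR EV mice and 1581, 2006 and 1848 in EnzR EV + HDL NP mice. The 11 neutrophil markers with values summed to 56605, 115042 and 108211 TMM CPM in PBS mice, 32378, 123936 and 68255 in EnzR EV mice and 102856, 146157 and 83007 in EnzR EV + HDL NP mice, with S100a9 the most abundant, and Ly6g was not analysed here. The sum was lowest in EnzR EV replicate 1 and PBS replicate 1, the libraries with the most Rn45s. Monocyte markers (8 genes, Fn1 the most abundant) summed to 3827, 3414 and 3290.2 TMM CPM in PBS mice, 1889, 3301 and 2512 in EnzR EV mice and 3824, 3204 and 2767 in EnzR EV + HDL NP mice.

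Markers of other marrow cells differed widely in level. The 11 marrow macrophage markers with values (Slc40a1 the most abundant, Adgre1 not analysed here) summed to 1033, 1374 and 1914 TMM CPM in PBS mice, 944, 1099 and 992 in EnzR EV mice and 1215, 1113 and 1107 in EnzR EV + HDL NP mice. Eosinophil and basophil markers (8 genes, Prg2 the most abundant) summed to between 1515 and 3642 TMM CPM over the 9 mice. B lineage markers (10 genes, Cd79b the most abundant) summed to between 10.6 and 35.9 TMM CPM, and Pax5 stood at 0 in EnzR EV replicate 1 and at or under 0.880 TMM CPM in every mouse. T and NK cell markers (8 genes, Nkg7 the most abundant) summed to between 32.1 and 82.9 TMM CPM, with Cd3e at 0 in mice of all 3 groups and at most 1.65 TMM CPM. Erythroid markers (8 genes) summed to between 17.5 and 67.1 TMM CPM with Slc4a1 the most abundant, platelet and megakaryocyte markers (8 genes) to between 27.5 and 107 with Itga2b the most abundant, and plasmacytoid dendritic cell markers (8 genes) to between 109 and 137 with Lair1 the most abundant, while Hba-a1 and Hbb-b1 were listed at 0 in every mouse. In these bulk samples, fewer cells of a type and less RNA per cell cannot be told apart.

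Levels of different genes were compared per kb of exon, as TMM CPM divided by the length of all annotated exons of the gene. Over the 9 mice, mean levels per kb were 54.6 for Siglece, 43.1 for Cd33 and 31.6 for Neu1, then 9.84 for Cmas, 7.40 for Cmah, 5.19 for Siglec1, 4.79 for Nans, 3.98 for Slc35a1, 3.71 for Gne and 1.83 for St6gal1. The neutrophil-associated receptors Siglece and Cd33 and the lysosomal sialidase Neu1 thus took the first 3 places, and did so in every mouse. The ranges over mice of Siglece (43.9 to 66.8 TMM CPM per kb) and Cd33 (25.6 to 55.6) overlapped, as did those of Cmas (8.16 to 11.9) and Cmah (3.54 to 13.4). Cmah ranked 4 or 5 of the 10 genes in each EnzR EV mouse and from 5 to 9 in the mice of the other groups.

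**Figure D2:**
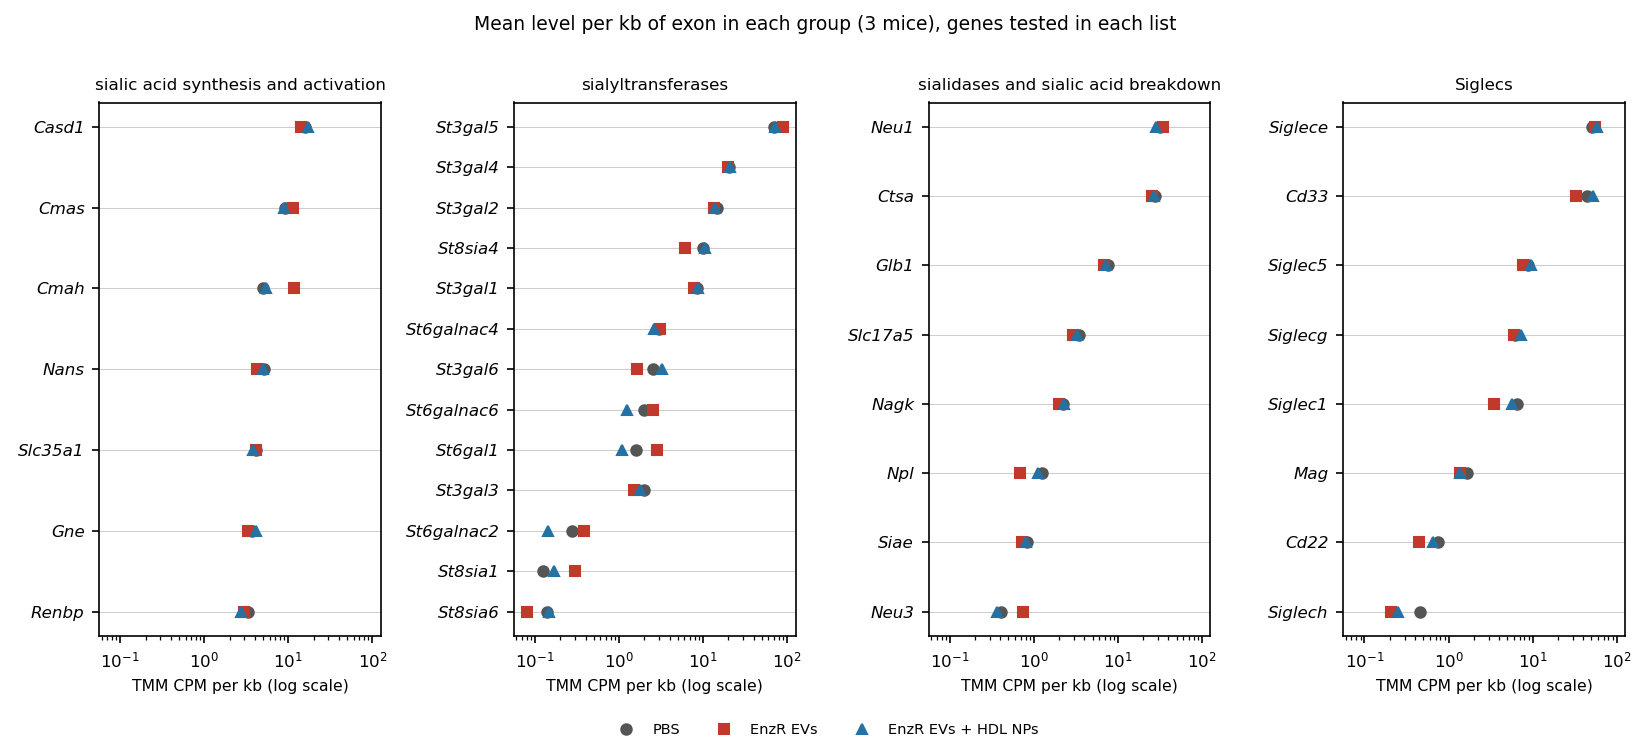
Mean level of 3 mice per group, in TMM CPM per kb of exon on a log scale, for each tested gene of 4 lists (sialic acid synthesis and activation, sialyltransferases, sialidases and sialic acid breakdown, Siglecs). Siglece and Cd33 lead the Siglecs, St3gal5 the sialyltransferases, and among the synthesis genes the group means lie farthest apart for Cmah (4.95 in PBS, 11.8 in EnzR EV and 5.49 in EnzR EV + HDL NP mice).

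Gne encodes the bifunctional enzyme that starts the pathway and limits its rate. Its level in replicates 1 to 3 was 20.1, 23.4 and 26.1 TMM CPM in PBS mice, 15.9, 24.1 and 23.2 in EnzR EV mice and 26.7, 27.8 and 25.3 in EnzR EV + HDL NP mice. All EnzR EV + HDL NP mice were above all EnzR EV mice, and every other pair of groups overlapped. The log2 fold change was −0.11 (SE 0.20) for EnzR EVs against PBS, 0.19 (SE 0.19, adjusted p = 0.9997) for EnzR EVs + HDL NPs against PBS and 0.30 (SE 0.20, adjusted p = 0.512) for EnzR EVs + HDL NPs against EnzR EVs. Without the 3 libraries rich in Rn45s, a choice made after seeing the data, these were −0.0384, 0.10 and 0.14. The comparisons that have a test share their PBS or EnzR EV mice with the comparison through which Cmah was chosen, and this holds for every adjusted p below.

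Nans encodes the synthase that forms N-acetylneuraminic acid 9-phosphate. It stood at 23.1, 22.7 and 25.2 TMM CPM in PBS mice, 11.5, 29.8 and 16.8 in EnzR EV mice and 29.6, 21.3 and 17.7 in EnzR EV + HDL NP mice. The EnzR EV mice held both the lowest and the highest of the 9 values, with EnzR EV replicate 1 resting on 21 counts, and no groups were apart. Its log2 fold changes were −0.22 (SE 0.31) for EnzR EVs against PBS, −0.05 (SE 0.30, adjusted p = 0.9997) for EnzR EVs + HDL NPs against PBS and 0.18 (SE 0.31, adjusted p = 0.799) for EnzR EVs + HDL NPs against EnzR EVs. Without the 3 libraries rich in Rn45s, they were 0.32, −0.06 and −0.38. Exons of Nans overlap those of Trim14 on the other strand, and whether the counting used strand is not given in the sources used here. Nanp, which removes the phosphate in the next step, did not pass the filter, at 0 to 0.880 TMM CPM in the 9 mice.

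Cmas encodes the synthetase that couples sialic acid to CMP. It was at 49.8, 41.2 and 38.4 TMM CPM in PBS mice, 54.3, 51.4 and 56.3 in EnzR EV mice and 42.8, 43.3 and 39.9 in EnzR EV + HDL NP mice. All EnzR EV mice were above the mice of both other groups, which overlapped each other. The log2 fold change was 0.33 (SE 0.16) for EnzR EVs against PBS, −0.04 (SE 0.15, adjusted p = 0.9997) for EnzR EVs + HDL NPs against PBS and −0.36 (SE 0.16, adjusted p = 0.461) for EnzR EVs + HDL NPs against EnzR EVs. Without the 3 libraries rich in Rn45s, these were 0.37, 0.08 and −0.29. Cmas varied little among mice of a group, with a mean coefficient of variation of 7.57% against a median of 22.3% over all genes tested.

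Slc35a1, the Golgi transporter of CMP-sialic acid, was among the lower of the genes. Its values were 11.4, 7.48 and 9.10 TMM CPM in PBS mice, 7.68, 9.05 and 11.5 in EnzR EV mice and 8.89, 8.82 and 8.24 in EnzR EV + HDL NP mice. The groups overlapped in every comparison, and the value of EnzR EV replicate 1 rested on 14 counts. Log2 fold changes were 0.06 (SE 0.24) for EnzR EVs against PBS, −0.09 (SE 0.23, adjusted p = 0.9997) for EnzR EVs + HDL NPs against PBS and −0.15 (SE 0.23, adjusted p = 0.770) for EnzR EVs + HDL NPs against EnzR EVs. Leaving out the 3 libraries rich in Rn45s gave 0.13, 0.0641 and −0.0668. An exon of Gm22849 overlaps Slc35a1 on the other strand.

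Cmah encodes the hydroxylase that converts the N-acetyl form of CMP-sialic acid to the N-glycolyl form. The gene lies on the plus strand of chromosome 13 (GRCm38, 24327404 to 24477377), with 20 blocks of exon and no exon shared with another annotated gene. RefSeq (GRCm38.p6) promoters, each from 250 bases before to 50 bases after a start site, were found for 8 of the 10 genes in 12 windows, and those of Cmah, at both its start sites, and of Cmas are shown because these genes were highest in EnzR EV mice. Over the 9 mice, which share groups, Pearson r of log2 TMM CPM between them was 0.852, and 0.494 with each group's mean taken away. The windows are chr13:24327154-24327453 and chr13:24414872-24415171 for Cmah and chr6:142756436-142756735 for Cmas, all on the plus strand and written from upstream to downstream. Capitals mark matches on either strand to any of 5 sets of letters that were searched, GAAANNGAA of interferon regulatory factors, TTCNNNGAA of cytokine response elements, CCAAT of the CCAAT box, GGGCGG of the GC box and TATAAA of the TATA box.
Cmah, upstream start: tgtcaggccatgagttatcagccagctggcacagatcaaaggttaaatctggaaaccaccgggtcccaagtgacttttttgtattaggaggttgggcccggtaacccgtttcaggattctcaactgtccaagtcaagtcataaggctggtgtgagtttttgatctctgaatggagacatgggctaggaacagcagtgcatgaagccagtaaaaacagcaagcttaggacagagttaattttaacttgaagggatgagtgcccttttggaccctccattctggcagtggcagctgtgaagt
Cmah, downstream start: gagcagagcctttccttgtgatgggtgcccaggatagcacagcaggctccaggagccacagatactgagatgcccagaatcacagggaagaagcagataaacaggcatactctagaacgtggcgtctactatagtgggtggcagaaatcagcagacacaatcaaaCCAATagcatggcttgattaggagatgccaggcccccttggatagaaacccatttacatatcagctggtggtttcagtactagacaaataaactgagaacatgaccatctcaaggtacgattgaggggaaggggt
Cmas: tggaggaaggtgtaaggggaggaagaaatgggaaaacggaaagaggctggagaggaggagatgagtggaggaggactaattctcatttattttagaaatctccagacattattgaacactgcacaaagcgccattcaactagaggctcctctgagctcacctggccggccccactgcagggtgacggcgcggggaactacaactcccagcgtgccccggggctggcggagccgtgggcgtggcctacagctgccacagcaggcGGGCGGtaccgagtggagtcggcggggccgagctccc
The downstream window of Cmah holds 1 match to CCAAT, a set of letters present in 37.4% of all 32851 promoter windows, and the window of Cmas holds 1 match to GGGCGG, present in 35.7%. The upstream window of Cmah holds none of the 5, and TATAAA occurs in 13.6% of all windows. Neither GAAANNGAA (8.56% of all windows) nor TTCNNNGAA (8.30%) occurs in any of the 12 windows of the 8 genes. Given these low shares, nothing is read from their absence in 12 windows. Nans and Siglec1 had no window in the promoter set, so the search does not cover them. A match is a string of letters in a window and was not tested for binding.

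Cmah was at 73.0, 45.1 and 40.2 TMM CPM in PBS mice (52.8 ± 17.7, mean ± SD, n = 3). In EnzR EV mice it was at 143, 128 and 105 (125 ± 19.1, n = 3), and in EnzR EV + HDL NP mice at 37.7, 77.1 and 60.8 (58.5 ± 19.8, n = 3). Every EnzR EV mouse was above all 6 other mice, and PBS and EnzR EV + HDL NP mice overlapped. The raw counts behind these values were 415, 784 and 702 in PBS mice, 260, 2412 and 887 in EnzR EV mice and 670, 1293 and 870 in EnzR EV + HDL NP mice. The highest level was in the shallowest library and the second highest in the deepest, and the part of depth was not tested.

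The difference that chose Cmah was a log2 fold change of 1.25 (SE 0.30) for EnzR EVs against PBS, or 2.38-fold. For EnzR EVs + HDL NPs against EnzR EVs it was −1.09 (SE 0.29, 95% interval −1.75 to −0.44 before any adjustment for the number of genes), and the adjusted p of 0.461 missed the threshold of 0.05. This comparison reuses the EnzR EV mice whose high values chose the gene. For EnzR EVs + HDL NPs against PBS it was 0.16 (SE 0.29, 95% interval −0.49 to 0.80, adjusted p = 0.9997), an interval that takes in both no difference and a level higher by 0.80 on the log2 scale. Without the 2 libraries with the lowest total counts the values in this order were 1.46, −1.004 and 0.46, and without the 3 libraries rich in Rn45s, which leaves EnzR EV replicate 2 alone in its group and takes its spread from the other groups, they were 1.59, −1.14 and 0.46. The difference between EnzR EVs + HDL NPs and PBS was 0.46 also when PBS replicate 1 alone was left out, and turned to −0.10 without EnzR EV + HDL NP replicate 2 and to −0.01 without PBS replicate 3.

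**Figure D3:**
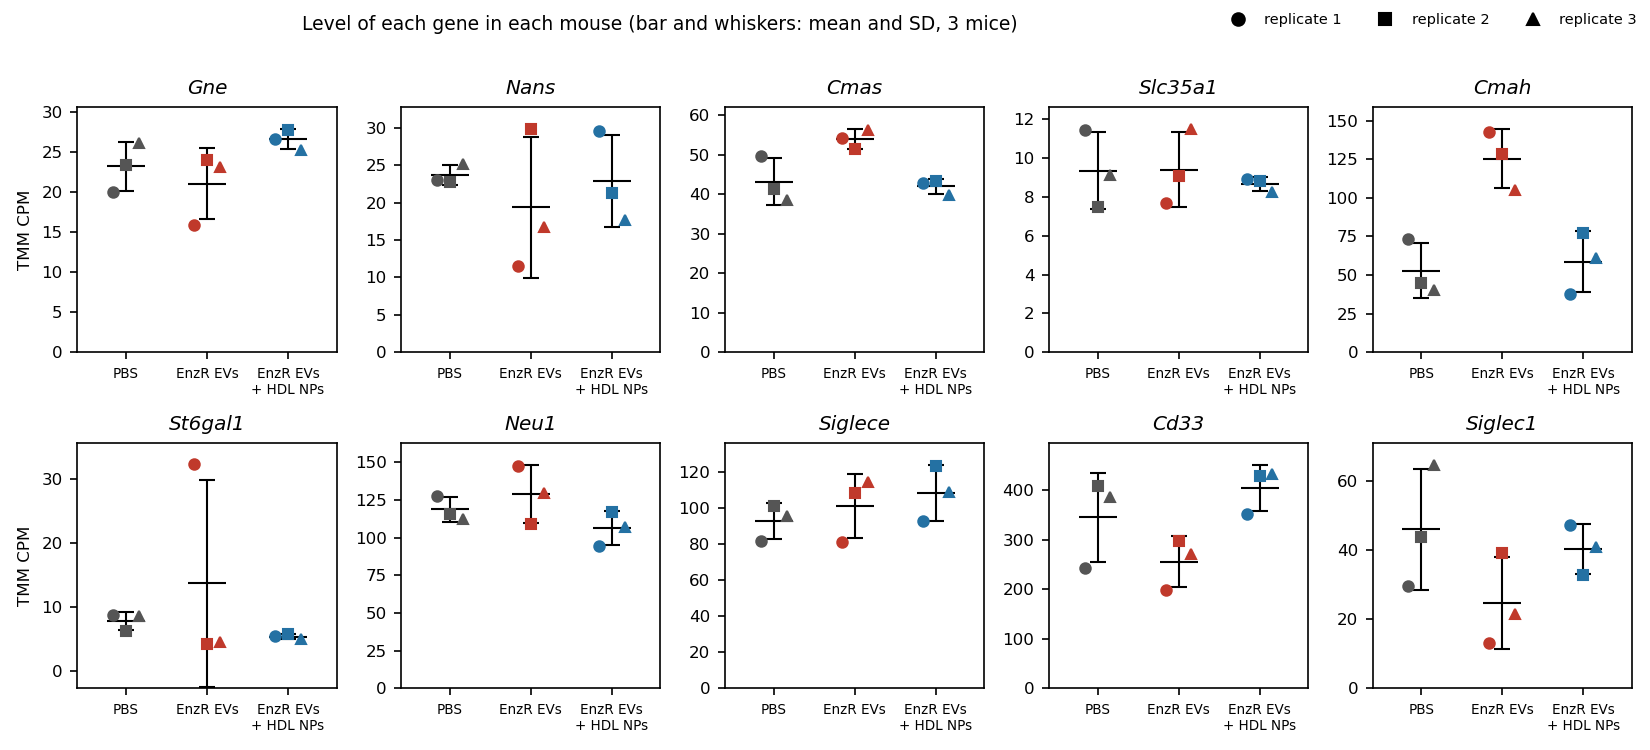
Level of each of the 10 genes in TMM CPM in each mouse (points, shaped by replicate number and coloured by group), with mean and SD of 3 mice as bar and whiskers. Cmah and Cmas are the genes in which all EnzR EV mice lie above all mice of both other groups, and St6gal1 has its highest value, 32.4 TMM CPM, in EnzR EV replicate 1.

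St6gal1, which adds sialic acid to the galactose ends of N-glycans, showed how far 1 library can move a mean. Its level was 8.80, 6.27 and 8.58 TMM CPM in PBS mice, 32.4, 4.20 and 4.61 in EnzR EV mice and 5.46, 5.78 and 4.96 in EnzR EV + HDL NP mice. EnzR EV replicate 1 was far above the other 8 mice on 59 counts, the other EnzR EV mice were below all PBS mice, and all EnzR EV + HDL NP mice were below all PBS mice. The log2 fold change for EnzR EVs against PBS was 0.54 (SE 0.67) over all mice and −0.83 (SE 0.25) without EnzR EV replicate 1. For EnzR EVs + HDL NPs against EnzR EVs it was −1.07 (SE 0.67, unadjusted p = 0.137, adjusted p = 0.501) and turned to 0.29 without that library, while for EnzR EVs + HDL NPs against PBS it was −0.53 (SE 0.63, adjusted p = 0.9997). Without the 3 libraries rich in Rn45s, these differences in the order given were −0.82, 0.36 and −0.46. B lineage markers, of cells known for St6gal1, summed to 30.2 TMM CPM in EnzR EV replicate 1, to 13.4 and 12.2 in EnzR EV replicates 2 and 3 and to 35.9 in PBS replicate 1, and their part in the St6gal1 values was not tested. An exon of BC106179 overlaps St6gal1 on the other strand.

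Neu1 encodes the lysosomal sialidase. It was at 128, 116 and 113 TMM CPM in PBS mice, 148, 109 and 129.9 in EnzR EV mice and 94.4, 117 and 107 in EnzR EV + HDL NP mice. The groups overlapped in all comparisons, and EnzR EV replicate 1 was the highest. The log2 fold change was 0.11 (SE 0.16) for EnzR EVs against PBS, −0.16 (SE 0.16, adjusted p = 0.9997) for EnzR EVs + HDL NPs against PBS and −0.27 (SE 0.16, adjusted p = 0.490) for EnzR EVs + HDL NPs against EnzR EVs. Leaving out the 3 libraries rich in Rn45s gave −0.0588, −0.10 and −0.0448.

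Siglece is an inhibitory receptor of mouse neutrophils and monocytes. Its level was 82.0, 101 and 95.8 TMM CPM in PBS mice, 81.2, 108 and 115 in EnzR EV mice and 92.8, 124 and 109 in EnzR EV + HDL NP mice. The groups overlapped, and the lowest value of each group was in replicate 1. Log2 fold changes were 0.13 (SE 0.18) for EnzR EVs against PBS, 0.22 (SE 0.18, adjusted p = 0.9997) for EnzR EVs + HDL NPs against PBS and 0.09 (SE 0.18, adjusted p = 0.826) for EnzR EVs + HDL NPs against EnzR EVs. Leaving out the 3 libraries rich in Rn45s gave 0.14, 0.14 and −0.000791. The 95% interval of the last over all mice, −0.32 to 0.50 before adjustment for the number of genes, bounds a difference in either direction.

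Cd33 encodes another Siglec of myeloid cells, and lies like Siglece on the minus strand of chromosome 7 (43524216 to 43544428 against 43651070 to 43660161). It was at 243, 409 and 386 TMM CPM in PBS mice, 199, 298 and 271 in EnzR EV mice and 351, 429.6 and 432 in EnzR EV + HDL NP mice. All EnzR EV + HDL NP mice were above all EnzR EV mice, while PBS replicate 1, one of the libraries rich in Rn45s, fell among the EnzR EV mice. The log2 fold change was −0.43 (SE 0.23) for EnzR EVs against PBS, 0.23 (SE 0.23, adjusted p = 0.9997) for EnzR EVs + HDL NPs against PBS and 0.66 (SE 0.23, adjusted p = 0.461) for EnzR EVs + HDL NPs against EnzR EVs. Without EnzR EV replicate 1 the first of these was −0.28, without PBS replicate 1 the next was 0.02, and without the 3 libraries rich in Rn45s all 3 were −0.41, 0.03 and 0.44.

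Siglec1 encodes sialoadhesin, a receptor of marrow and other tissue macrophages that is known to be induced by type I interferon. It was at 29.7, 43.9 and 64.6 TMM CPM in PBS mice, 13.2, 39.3 and 21.5 in EnzR EV mice and 47.4, 32.9 and 40.9 in EnzR EV + HDL NP mice. The groups overlapped, the lowest values were in EnzR EV replicates 1 and 3, and the first of these rested on 24 counts. The log2 fold change was −0.84 (SE 0.37) for EnzR EVs against PBS, −0.20 (SE 0.36, adjusted p = 0.9997) for EnzR EVs + HDL NPs against PBS and 0.65 (SE 0.37, adjusted p = 0.487) for EnzR EVs + HDL NPs against EnzR EVs. Without the 3 libraries rich in Rn45s these were −0.46, −0.42 and 0.04. Marrow macrophage markers stood below the PBS mean in EnzR EV mice in 10 of the 11 genes (median log2 fold change −0.72). In EnzR EV + HDL NP mice all 11 were lower than in PBS mice (median −0.42). Their sums overlapped between PBS mice (1033, 1374 and 1914 TMM CPM) and EnzR EV mice (944, 1099 and 992). The part of these markers in the Siglec1 values was not tested.

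**Figure D4:**
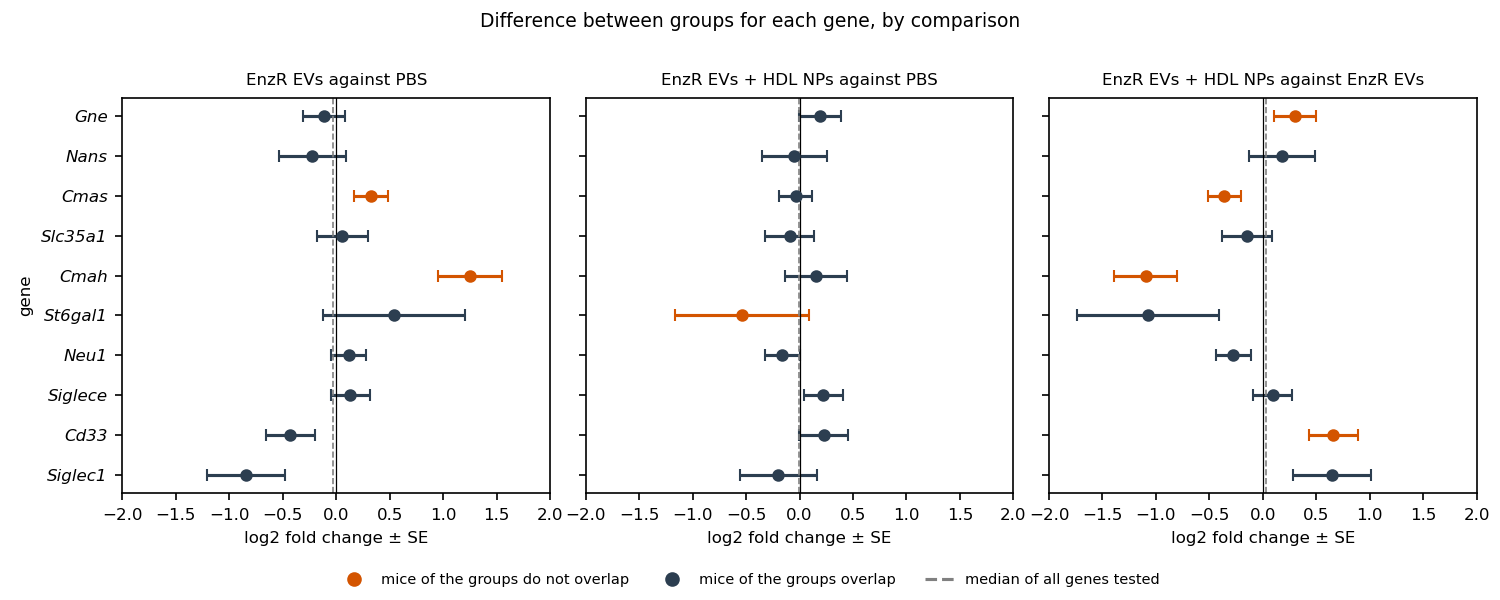
Log2 fold change (point) and SE (whiskers) of each of the 10 genes in the 3 comparisons, with the median of all genes tested as a dashed line. Orange points mark genes whose mice do not overlap between the groups compared, which are Cmah and Cmas for EnzR EVs against PBS, St6gal1 for EnzR EVs + HDL NPs against PBS, and Gne, Cmas, Cmah and Cd33 for EnzR EVs + HDL NPs against EnzR EVs.

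The 10 genes are set here beside all genes tested. For EnzR EVs against PBS, 2 of the 10 had all EnzR EV mice above all PBS mice and 0 had them all below, where 3.43% and 4.52% of all genes tested did so, and nothing is read from this comparison because it chose Cmah. For EnzR EVs + HDL NPs against PBS, 0 of the 10 had all mice of the first group above and 1 (St6gal1) below, against 6.96% and 6.21% of all genes. Compared with EnzR EVs, the EnzR EVs + HDL NPs had 2 of the 10 (Gne and Cd33) with all mice above and 2 (Cmas and Cmah) below, against 8.99% and 8.58% of all genes, and these include Cmah and Cmas, high in the EnzR EV mice used for the choice. The median log2 fold change of the 10 genes was 0.09 for EnzR EVs against PBS, −0.04 for EnzR EVs + HDL NPs against PBS and −0.03 for EnzR EVs + HDL NPs against EnzR EVs, beside −0.03, −0.01 and 0.03 over all genes tested.

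By edgeR, 0 of the 10 genes passed an adjusted p of 0.05 in EnzR EVs + HDL NPs against PBS or against EnzR EVs, where 0% of the 12553 genes did so in each. DESeq2 also called 0 of the 10, and 8 genes in all (0.0637%) in the first and 1 (0.00797%) in the last, while limma voom called 0 genes in each. With sample quality weights, limma voom called 10 genes in the first and 653 in the last, Cmah and Cd33 among the latter (adjusted p = 0.0480 and 0.0489, each up to 0.958 over the alternatives). At an unadjusted p under 0.05, edgeR counted 0 of the 10 genes and 268 of all genes in the first, and 3 of the 10 (Cmah, Cmas and Cd33) and 1325 of all genes in the last. Nothing is read from the count of 3, since Cmah was chosen by its high values in the EnzR EV mice of that comparison. For EnzR EVs against PBS, in which no call is used for the 10 genes, edgeR called 0 genes (0%), with 436 at an unadjusted p under 0.05, and DESeq2 called 11 (0.0876%).

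Several of the 10 genes followed the Rn45s share across mice. Over the 9 mice, with log2 TMM CPM on both sides, Pearson r with Rn45s was −0.902 for Gne, −0.852 for Cd33, −0.838 for Siglec1 and −0.761 for Nans. It was 0.860 for Neu1, 0.708 for Cmas, 0.656 for St6gal1, 0.593 for Cmah and 0.270 for Slc35a1, and −0.550 for Siglece. After each group's mean was taken away, r was −0.849 for Gne, −0.877 for Siglec1, 0.784 for Neu1 and 0.453 for Cmah. These values describe libraries that share depth and RNA content with their Rn45s share, and its part in the differences between groups was not tested.

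The rest of the pathway was followed through lists of related genes. Of the 7 tested genes of sialic acid synthesis and activation, which include 5 of the 10, 3 were higher and 4 lower for EnzR EVs against PBS (median log2 fold change −0.05), and 3 were higher and 4 lower in both comparisons of EnzR EVs + HDL NPs (medians −0.04 against PBS and −0.15 against EnzR EVs). The highest gene of this list per kb was Casd1, which encodes an O-acetyltransferase of sialic acid, at 15.7 TMM CPM per kb, with a log2 fold change of −0.16 (SE 0.20) for EnzR EVs against PBS. The medians of all genes tested given above serve as the reference for these and the following lists, and edgeR called 0 genes of any list in any comparison, with the counts of all genes by edgeR and DESeq2 as given above. DESeq2 called 3 interferon-stimulated genes (Ifit1, Oas3 and Rsad2) for EnzR EVs against PBS and 1 (Rsad2) for EnzR EVs + HDL NPs against PBS, and 0 genes of the other lists.

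Among sialyltransferases, 13 of 20 were tested. The ganglioside synthase St3gal5 led at 76.7 TMM CPM per kb, ahead of St3gal4 at 20.3 and St3gal2 at 14.1, which place sialic acid on terminal galactose. St3gal5 stood at 204, 186 and 153 TMM CPM in PBS mice, 275, 168 and 257 in EnzR EV mice and 136, 196 and 232 in EnzR EV + HDL NP mice, with overlap between all groups. For EnzR EVs against PBS 5 of the 13 were higher and 8 lower (median −0.08), for EnzR EVs + HDL NPs against PBS 6 higher and 7 lower (median −0.03), and against EnzR EVs 7 higher and 6 lower (median 0.04). By group means, 2 genes counted as lower by the fit went the other way. St6galnac2 averaged 2.21 TMM CPM in EnzR EV mice, with replicate 1 at 4.94, against 1.58 in PBS mice. St8sia6 averaged 1.11 TMM CPM in EnzR EV + HDL NP mice against 1.07 in PBS mice. Of sialidases and other genes of sialic acid breakdown, 8 of 10 were tested, and Neu2 was listed at 0 in every mouse. Neu1 led this list at 31.6 TMM CPM per kb, followed by its stabilising partners Ctsa at 26.7 and Glb1 at 7.31. In this list 2 genes were higher and 6 lower for EnzR EVs against PBS (median −0.14), 1 higher and 7 lower for EnzR EVs + HDL NPs against PBS (median −0.08), and 6 higher and 2 lower against EnzR EVs (median 0.09).

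Among Siglecs, 8 of 9 genes were tested, with Siglec5, the murine Siglec-F of eosinophils, next per kb at 8.66 after Siglece and Cd33. For EnzR EVs against PBS, 1 of the 8 was higher and 7 were lower (median log2 fold change −0.35). Against EnzR EVs, the EnzR EVs + HDL NPs gave 7 higher and 1 lower (median 0.46), and against PBS 4 higher and 4 lower (median −0.05). The summed level of all 9 was 401, 622 and 629 TMM CPM in PBS mice, 347, 512 and 461 in EnzR EV mice and 577, 658 and 640.3 in EnzR EV + HDL NP mice, most of it Cd33. EnzR EV replicate 1 and PBS replicate 1, both rich in Rn45s, had the lowest sums.

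Siglec signalling partners (8 tested) were led by Tyrobp, the adaptor of activating Siglecs, at 1519 TMM CPM per kb, ahead of Ptpn6 at 130.3, the phosphatase recruited by inhibitory Siglecs, and the kinase Lyn at 114. Of these 8 genes, 5 were higher for EnzR EVs against PBS (median 0.08), 5 for EnzR EVs + HDL NPs against PBS (median 0.00), and 3 for EnzR EVs + HDL NPs against EnzR EVs (median −0.08). Leukocyte glycoproteins that carry sialic acid (8 tested, Itgb2, Cd24a and Cd52 the highest per kb at 508, 386 and 317) had medians of −0.16, 0.03 and 0.24 in the same order, with 3, 5 and 5 genes higher. Other proteins that bind sialic acid (6 tested, among them Pilra at 58.7 and Pilrb2 at 39.5 TMM CPM per kb) had medians of −0.33, 0.21 and 0.48, with 1, 5 and 6 genes higher.

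Interferon-stimulated genes were described because Siglec1 belongs to this response. Of 24 genes, 23 were higher for EnzR EVs against PBS (median log2 fold change 0.82), with all EnzR EV mice above all PBS mice for 4 of the 24 (3.43% of all genes). All 24 were higher for EnzR EVs + HDL NPs against PBS (median 0.95), with all EnzR EV + HDL NP mice above all PBS mice for 22 of the 24 (6.96% of all genes). Between EnzR EV + HDL NP and EnzR EV mice, 16 were higher in the former and 8 lower (median 0.32), with all mice above for 2 and below for 1 (8.99% and 8.58% of all genes). The summed level of the 24 genes was 895, 1320.4 and 1201 TMM CPM in PBS mice, 949, 2462 and 1699 in EnzR EV mice and 2242, 1915 and 2083 in EnzR EV + HDL NP mice. The lowest sums of the PBS and of the EnzR EV mice were in their replicates 1, the libraries with the most Rn45s, and the part of Rn45s in these differences was not tested. Among the 24 genes, Oas3 was at 30.0 and Rsad2 at 26.2 TMM CPM per kb. Ifit1, named after its values were seen as a gene called by DESeq2, stood at 24.1, 15.8 and 13.2 TMM CPM in PBS mice, 94.9, 62.5 and 61.0 in EnzR EV mice and 44.9, 31.5 and 39.6 in EnzR EV + HDL NP mice. Its 3 groups did not overlap, with EnzR EV + HDL NP mice between the others. Rsad2 stood at 70.9, 68.3 and 59.2 TMM CPM in PBS mice, 105, 178 and 144 in EnzR EV mice and 130.3, 111 and 154 in EnzR EV + HDL NP mice, while Siglec1 overlapped between all groups in the same libraries.

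Cell type markers were counted in the same way, and other scalings were not run for any of the lists. For EnzR EVs against PBS, 9 of 11 neutrophil markers, 8 of 8 monocyte markers, 9 of 9 B lineage markers and 5 of 6 T and NK cell markers tested were lower, with median log2 fold changes of −0.14, −0.34, −0.98 and −0.39. Lower as well were 3 of 5 plasmacytoid dendritic cell markers, 7 of 8 eosinophil and basophil markers, 5 of 6 erythroid markers and 5 of 7 platelet and megakaryocyte markers (medians −0.16, −0.43, −0.88 and −0.33). The most abundant genes of some of these lists went the other way, Prg2 of eosinophils and basophils with a log2 fold change of 0.35, Nkg7 of T and NK cells with 0.55 and Lair1 of plasmacytoid dendritic cells with 0.10. The summed eosinophil and basophil markers were at 2377, 2608 and 2949 TMM CPM in PBS mice and 3219, 2379 and 3442 in EnzR EV mice. Those of T and NK cells were at 64.1, 51.0 and 55.8 in PBS mice and 82.9, 55.1 and 61.5 in EnzR EV mice, so both sums overlapped between these groups. Between EnzR EV + HDL NP and EnzR EV mice, the medians were 0.13 for neutrophil, 0.33 for monocyte, 0.25 for marrow macrophage, 0.16 for B lineage, 0.07 for T and NK cell, 0.20 for plasmacytoid dendritic cell, 0.26 for eosinophil and basophil, 0.24 for erythroid and −0.57 for platelet and megakaryocyte markers. Between EnzR EV + HDL NP and PBS mice they were, in the same order, 0.07, −0.13, −0.42, −0.85, −0.30, −0.10, −0.10, −0.56 and −0.64. All EnzR EV mice were below all PBS mice for 3 monocyte, 2 marrow macrophage, 1 B lineage and 1 eosinophil and basophil marker (4.52% of all genes). All EnzR EV + HDL NP mice were below all PBS mice for 1 neutrophil, 1 monocyte, 2 marrow macrophage and 1 B lineage marker (6.21% of all genes). They were above for 1 plasmacytoid dendritic cell marker (6.96% of all genes). All EnzR EV + HDL NP mice were above all EnzR EV mice for 2 monocyte, 4 marrow macrophage and 1 T and NK cell marker (8.99% of all genes). They were below for 1 neutrophil, 1 marrow macrophage and 1 T and NK cell marker (8.58% of all genes). The part of the cell mixture in the levels of the 10 genes was not tested.

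The genes most like Cmah across the 9 mice, by Pearson r of log2 TMM CPM among all genes tested, were AI646023 (r = 0.962), Gyk (0.941), Igfbp6 (0.923), Ppp2cb (0.920) and Steap4 (0.915). Gyk, a glycerol kinase, stood at 69.3, 66.1 and 64.2 TMM CPM in PBS mice, 98.8, 94.1 and 77.4 in EnzR EV mice and 53.8, 72.3 and 69.6 in EnzR EV + HDL NP mice. Steap4, a metalloreductase, stood at 18.8, 3.11 and 5.21 TMM CPM in PBS mice, 20.3, 33.1 and 20.5 in EnzR EV mice and 3.26, 10.97 and 5.03 in EnzR EV + HDL NP mice. Both had their highest values in the EnzR EV mice, as Cmah did. They were picked for likeness to Cmah, itself chosen for high values in these mice, so nothing is read from this. AI646023 and Igfbp6 were low, with means of 2.62 and 1.49 TMM CPM. With each group's mean taken away, r with Cmah was 0.923 for AI646023, 0.837 for Gyk, 0.758 for Igfbp6, 0.706 for Ppp2cb and 0.823 for Steap4. The mice share libraries and groups and the genes were picked for their high r, so these values serve as a description of likeness.

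The pattern of Siglec1 was nearest to those of Igf1 (r = 0.9745), Zmym1 (0.969), Itgad (0.965), Nek3 (0.961) and Orc5 (0.958) over the same 9 mice. Igf1, a growth factor, stood at 12.8, 20.4 and 28.7 TMM CPM in PBS mice, 6.58, 15.5 and 10.9 in EnzR EV mice and 17.1, 13.7 and 15.9 in EnzR EV + HDL NP mice. Its lowest value was in EnzR EV replicate 1 and its highest in PBS replicate 3, as for Siglec1, for likeness to which it was picked. Itgad, an integrin subunit of macrophages, stood at 12.5, 22.7 and 42.0 TMM CPM in PBS mice, 6.58, 17.4 and 9.93 in EnzR EV mice and 23.0, 18.9 and 17.0 in EnzR EV + HDL NP mice. The pattern of Siglece was nearest to those of Hip1r (r = 0.961), Nudt7 (0.953), Aldh3a2 (0.948), Ftsjd2 (0.948) and Atp6v1g2 (0.944).

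**Figure D5:**
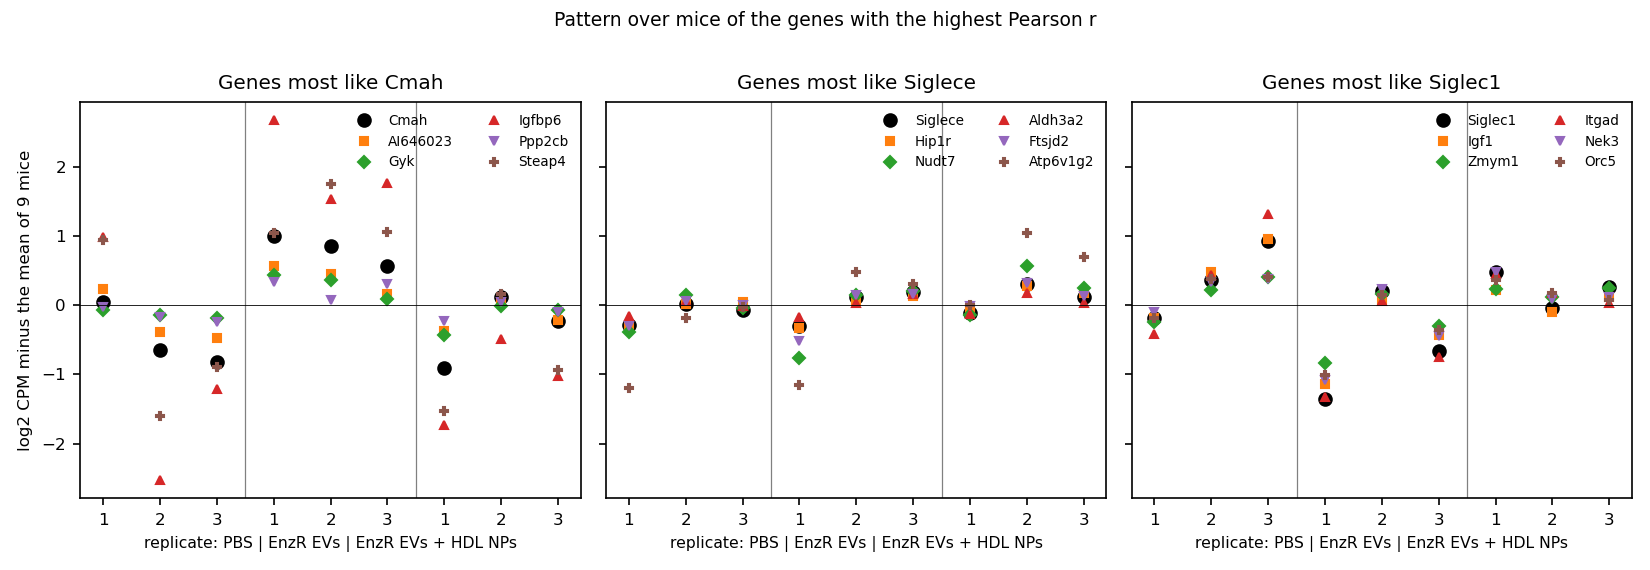
Log2 TMM CPM of each mouse minus the mean of the 9 mice, for Cmah, Siglece and Siglec1 (black) and the 5 genes with the highest Pearson r with each. The black points of Cmah are highest in the 3 EnzR EV mice, those of Siglec1 are lowest in EnzR EV replicates 1 and 3, and those of Siglece span the narrowest range.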

How the data were processed

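Stranded total RNA libraries, depleted of rRNA, were made from 200 ng RNA per mouse and read as single ends of 75 bp. The authors deposited raw counts per gene, with no normalization, made with cutadapt 1.13, STAR on mm10 and HTSeq 0.6.1p1 per the submitters' processing notes. The paper also states that reads matching rRNA or of poor quality were removed before alignment. The Rn45s shares given here are those of the counts as supplied. Whether the counting used strand is not given in the sources used here. All 9 libraries were mapped to a group from their labels, and 0 rows named no gene. Replicates of a group differed by more than sampling noise and were kept as separate mice.

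The software was edgeR 4.0.16 under R 4.3.3 (TMM, filter on low counts by group, robust quasi-likelihood fit to all 9 libraries with 1 coefficient per group, Benjamini-Hochberg adjustment over the 12553 genes tested, threshold 0.05). The SE of a log2 fold change came from the quasi-likelihood F statistic. DESeq2 1.42.0 and limma 3.58.1, other scalings and filters, and libraries left out were alternatives. The procedure was tested on simulated data. A permutation of 3 against 3 mice cannot give a p under 0.1, so none was used. For correlations, log2 CPM had a prior count of 2. Exon lengths came from GENCODE M21 (173 of 174 genes matched), on the assembly that mm10 denotes.

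The 10 genes and the 17 lists (175 genes, 173 in the counts) were chosen with earlier results of these data known. Genes named are the 10, any list gene past the threshold by edgeR, up to 3 of the highest per kb of each list, the 5 most like Cmah, Siglec1 and Siglece, and markers at or near 0. Others named were chosen after their values were seen, to count exceptions or to show which gene holds a sum.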

Additional observations from a re-analysis of the deposited data

How the results depend on the processing

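Over the 10 genes in 3 comparisons and 540 combinations of result and alternative, 501 kept their direction and their side of the threshold or, for EnzR EVs against PBS, which has no test, moved by less than the spread between mice. In the tested comparisons 29 turned direction and 2 came to pass the threshold, and for EnzR EVs against PBS 8 moved by more than that spread, whether or not they turned.

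The number of genes past an adjusted p of 0.05, 0 by edgeR in each comparison (436, 268 and 1325 at an unadjusted p under 0.05), depended on the method. For EnzR EVs against PBS it was 11 by DESeq2, 1990 by limma voom with sample quality weights, 1 with no filter, 1 with the replicate number as a block, 5 without the 2 libraries with the lowest total counts (EnzR EV replicate 1 and PBS replicate 1), and 10 without the 3 libraries with the highest Rn45s share, an alternative chosen after seeing the data that leaves 1 EnzR EV library, assumed to vary like the others. Leaving out 1 library gave 0 to 2, with 2 without PBS replicate 1. It was 8 for EnzR EVs + HDL NPs against PBS by DESeq2 and 10 with quality weights. Between EnzR EVs + HDL NPs and EnzR EVs it was 1 by DESeq2, 653 with quality weights, and 1 each with the 6 libraries of the comparison, without the 2 lowest libraries and without the 3 rich in Rn45s. The cause of these differences was not tested.

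The Cmah log2 fold change for EnzR EVs against PBS ran from 1.08 to 1.59 over all alternatives. Against PBS, that of EnzR EVs + HDL NPs ran from −0.10 to 0.46 when 1 library was left out, negative without PBS replicate 3 or EnzR EV + HDL NP replicate 2, and the cause was not tested. Against EnzR EVs, it passed the threshold with quality weights (−0.87, adjusted p = 0.0480, range over alternatives 0.0480 to 0.958), as did Cd33 (0.62, adjusted p = 0.0489, range 0.0489 to 0.958).

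Several differences turned direction, among them the large ones of St6gal1, and the cause was not tested except for library size only. Between EnzR EVs + HDL NPs and PBS, quality weights gave 0.0667 for Cmas and 0.0701 for Slc35a1, scaling by library size only gave 0.0297 for Cmas and 0.0144 for Nans, the 2 lowest libraries left out gave 0.0771 for Cmas and 0.0640 for Slc35a1, and the 3 rich in Rn45s left out gave 0.0770 and 0.0641. Leaving out 1 library gave −0.12 to 0.0754 for Cmas, −0.27 to 0.10 for Nans, −0.23 to 0.0620 for Slc35a1 and −0.43 to 0.12 for Siglec1. Between EnzR EVs + HDL NPs and EnzR EVs, quality weights gave 0.17 for St6gal1 and −0.0129 for Siglece, library size only gave 0.0460 for Slc35a1, the 2 lowest libraries left out gave −0.0503 for Nans, 0.29 for St6gal1 and −0.0460 for Siglece, and the 3 rich in Rn45s left out gave −0.38 for Nans, 0.36 for St6gal1 and −0.000791 for Siglece. Leaving out 1 library gave −0.0535 to 0.61 for Nans, −0.24 to 0.0252 for Slc35a1, −1.61 to 0.29 for St6gal1 and −0.0458 to 0.19 for Siglece. In EnzR EVs against PBS, Nans turned from −0.22 to 0.32 and Neu1 from 0.11 to −0.0588 without the 3 libraries rich in Rn45s, and library size only gave −0.0819 for Neu1, −0.0770 for Slc35a1 and −0.0266 for Siglece. St6gal1 turned from 0.54 to −0.44 by limma voom, −0.59 with quality weights, −0.75 without the 2 lowest libraries, −0.82 without the 3 rich in Rn45s and −0.83 without EnzR EV replicate 1, Gne to 0.0238 without that library, and Slc35a1 to −0.12 without EnzR EV replicate 3 and to −0.0724 without PBS replicate 2.

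Scaling by library size only, with no TMM factor, moved the median of all genes to −0.18 for EnzR EVs against PBS and to 0.24 for EnzR EVs + HDL NPs against EnzR EVs, from −0.03 and 0.03 with TMM, and to 0.0470 for EnzR EVs + HDL NPs against PBS from −0.01. The turns of Cmas, Nans and Slc35a1 in the comparisons of EnzR EVs + HDL NPs under that scaling are about the size of this shift of all genes, and their values above are not relative to it. Whether replicate numbers mark pairs was checked after the group means were taken away. Libraries of the same number correlated with a mean r of 0.197 (−0.28 to 0.61, n = 9 pairs) and those of different number with a mean r of −0.0854 (n = 18 pairs). Between PBS and EnzR EV mice, r was 0.586, 0.610 and 0.120 for the same number and ran from −0.65 to 0.55 for different numbers. The numbers were not used as a block, and with the block Cmah was at 1.26 for EnzR EVs against PBS. Depth limits EnzR EV replicate 1 most, with 14 counts for Slc35a1.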
